A study of Mus musculus with 22 samples.

Results

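The change described here is that from the control 2-cell embryo to the 8-cell embryo made by spindle transfer, in mouse. It was read from 4 of the 22 libraries of the series: both libraries titled 2C(48h)_Setd2_Con and both titled ST_8C_Setd2_Con. The stages lie in different tables, one of 12 libraries and one of 4, which share 22592 gene symbols and were normalized separately. A difference is the mean log2(FPKM + 1) of the 8-cell libraries minus that of the 2-cell libraries, where FPKM scales the fragments of a gene by transcript length and by the mapped fragments of the library. A gene was counted with at least 1 FPKM in at least 2 of the 4 libraries. It was called higher or lower when the difference was at least 2, which is 4-fold on that scale, and both libraries of one stage lay above both of the other. No p-value was computed across the tables.

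The series follows transcription in oocytes and embryos with and without maternal Setd2, the enzyme that trimethylates lysine 36 of histone H3. All libraries were made by the Smart-seq2 protocol. The 2-cell embryos are of the genotype Setd2_Con, came from 8-week-old females injected with PMSG and hCG, and carry 48 h in their titles, while the protocol gives late 2-cell embryos as taken 47 h after hCG. They were harvested into M2 medium. The 8-cell embryos are titled Con and carry the genotype Setd2+/-. For them the spindle and chromosomes of one oocyte were moved, after exposure to the fusion agent HVJ-E, into an enucleated oocyte. The reconstructed egg was fertilized by sperm injection and kept in M16 medium to the 8-cell stage, with control and Setd2mNull females of 8 weeks as the source of oocytes. The labels do not say which of these genotypes gave the recipient cytoplasm of each library. The other libraries of the spindle-transfer table, titled KO and of the genotype Setd2-/-, and the Setd2_Con zygotes (30 h after hCG) and full-grown oocytes of the table of 12 are quoted beside the main values. The number of embryos in a library is not given, and nothing says that replicates came from separate females or cultures. Stage, table, embryo handling, genotype wording and depth change together between the 2-cell and the 8-cell libraries and cannot be told apart. FPKM are shares of a library, so that fewer RNA molecules per cell and a different number of cells cannot be told apart either.

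The mouse embryo starts its main programme of transcription at the 2-cell stage, in a burst that includes homeobox, zinc finger and ubiquitin protease genes hardly used elsewhere. Over the same days the RNA stored by the oocyte is destroyed, first by maternal deadenylases and then by factors that the embryo makes. By the 8-cell stage the blastomeres flatten against each other, build junctions, gain an apical and a basal side, and begin to express regulators of the trophectoderm and of the pluripotent inner cells.

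The 2-cell libraries held about 3.35 and 3.84 M fragments (M for mega), and the 8-cell libraries 7.76 and 6.61 M, from the step that 1 fragment makes in FPKM. Genes at 1 FPKM or more numbered 9142 to 9299 in these 4 libraries. Ranks of all 22592 shared symbols, counted or not, correlated at 0.926 between 2-cell replicates and 0.921 between 8-cell replicates (Spearman, across genes, which are not independent). Between stages the correlation was 0.822 to 0.827. Of the counted genes, 31 had 2-cell replicates 2 or more apart on the log2 scale, and 123 had 8-cell replicates that far apart. Of the markers of the 2-cell stage, Zscan4c stood at 13.1 and 9.72 FPKM in the 2-cell libraries and 0.105 and 0.16 in the 8-cell libraries, and Zfp352 at 65.4 and 50.8 against 1.38 and 43.3. The later markers Krt8 (0.431 and 0.222 against 24.9 and 31) and Cdx2 (0.142 and 0 against 6.9 and 7.54) were on the side of the 8-cell label. Of 19 cumulus and granulosa markers 1 was counted, of 19 sperm markers 6 and of 17 markers of blood, endothelium and connective tissue 3. Listed at 0 in the 4 libraries were 9 of the 19 cumulus, 7 of the 19 sperm and 8 of the 17 other markers. Among these were Inha, Fshr, Cyp11a1 and Ptx3, and also Prm1, Ptprc and Col1a1. Tnp1, a further sperm marker, was not at 0 in the 2-cell libraries and is described below. The summed cumulus list was 38.4 and 32.3 FPKM at the 2-cell and 7.54 and 5.41 at the 8-cell stage, nearly all of it Amhr2, the receptor of anti-Mullerian hormone. The summed sperm list was 41.5 and 47.7 against 21.4 and 24.7 FPKM. The 8-cell replicates differed in sex-linked RNA: the Y-linked Eif2s3y stood at 0 and 25.2 FPKM and Ddx3y at 0 and 30.3, while Xist, the RNA that coats the inactive X chromosome, stood at 4 and 0.0696. In the 2-cell libraries Eif2s3y was 3.18 and 4.99.

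Of 10142 genes counted, 988 were higher (9.74%) and 806 were lower (7.95%) at the 8-cell stage, 17.7% either way. The median difference was 0.03, and 49.4% of the genes lay within 1 of no difference. In 1 gene a difference past the fold came with replicates that overlapped between stages. Among the called genes, 336 of the higher ones were under 1 FPKM in both 2-cell libraries and 303 of the lower ones in both 8-cell libraries, so that these entered the count through the stage in which they were high. Listed at 0 in both libraries of the lower stage were 93 of the higher and 73 of the lower genes, for which no fold is given. At the border, 181 called genes had a difference between 2 and 2.1, and 227 uncalled genes one between 1.9 and 2. For scale, the same rule between the libraries labelled Setd2-/- and Setd2+/- within the spindle-transfer table called 63 of 9398 genes (0.67%), 30 higher and 33 lower, and 138 without replicate 1 of the +/- group or 129 without replicate 1 of the -/- group. The numbers 988 and 806 depend on the scale: with a pseudocount of 0.1 they were 1602 and 1492, and with 5 they were 388 and 285.

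**Figure D1:**
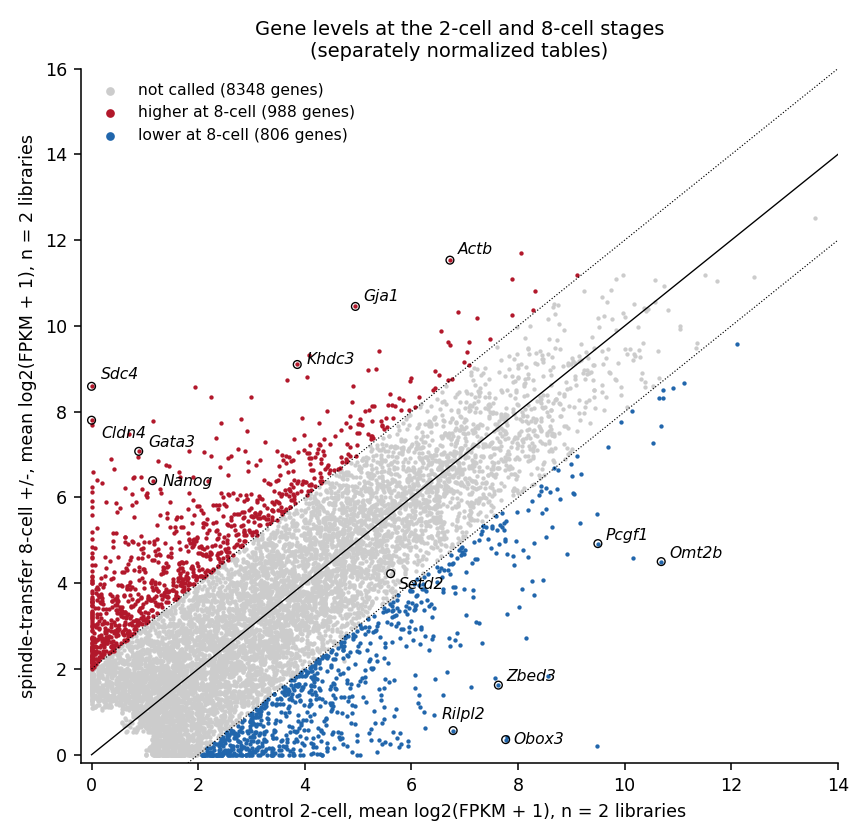
Mean log2(FPKM + 1) of each of the 10142 counted genes in the 2 control 2-cell libraries (x axis) and the 2 spindle-transfer 8-cell libraries labelled Setd2+/- (y axis); the solid line marks equal values, dotted lines a difference of 2. The 988 higher genes (red) reach down to 0 at the 2-cell stage (Sdc4, Cldn4), the 806 lower genes (blue) include Obox3 and Omt2b, and Setd2 lies between the dotted lines.

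The largest differences upward at the 8-cell stage were in genes of several kinds: membrane and junction proteins, secreted proteins, enzymes and a transcription factor. Sdc4, a heparan sulfate proteoglycan of the membrane, was listed at 0 in both 2-cell libraries and reached 367 and 404 FPKM in the 8-cell libraries, with 355 and 469 in those labelled Setd2-/-. Cldn4, a claudin of tight junctions, went from 0 in both libraries to 168 and 294, and Aqp3, a channel for water and glycerol, from 0 to 192 and 224. In each of these genes every 8-cell library stood above 100 FPKM and both 2-cell libraries at 0. Nppb, the precursor of brain natriuretic peptide, was listed at 0 against 55.9 and 99.9. Perp, a membrane protein of desmosomes, was 0.326 and 0 against 62.1 and 103, a difference of 6.14 (SE 0.42, 2 libraries a stage). Ly6a, a GPI-anchored surface antigen, was 0.734 and 1.88 against 198 and 244, and was higher still in the -/- libraries at 399 and 855. Metabolic enzymes were among these genes too. Fbp2, a fructose bisphosphatase, stood at 1.52 and 4.77 FPKM and then at 339 and 430.0, a ratio of means of 122. Vnn1, which releases vitamin B5 from pantetheine, was 0.875 and 0.428 against 384 and 80.9, so its 8-cell replicates were far apart while both stayed above the 2-cell values. Amd2, an S-adenosylmethionine decarboxylase of polyamine synthesis, was 0.697 and 0.0668 against 166 and 59.7. Sycn, a protein of pancreatic secretory granules, was 0 and 0.668 against 177 and 78.3. A further gene of this group by the naming rule, the transcription factor Gata3, is described with the lineage genes.

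The largest differences downward joined genes that were low in the zygote and high at the 2-cell stage with genes abundant since the oocyte. Obox3, a homeobox gene, stood at 232 and 203 FPKM at the 2-cell stage and at 0.169 and 0.394 at the 8-cell stage, a difference of -7.42 (SE 0.16, 2 libraries a stage). It had been 0.375 and 0.208 in the zygote and rose from there by 7.40 (SE 0.27, limma adjusted p = 3.5e-09). Rilpl2, which binds Rab proteins and acts in ciliary transport, had the same course: 0 and 0.275 in the zygote, 110.4 and 108 at the 2-cell and 0.224 and 0.783 at the 8-cell stage. Tnfaip8l2, a brake on immune signalling, was listed at 0 in zygotes and oocytes, stood at 80.5 and 90.4 at the 2-cell stage and at 1.8 and 0.3 at the 8-cell stage. Phlda2, an imprinted gene with a pleckstrin homology domain, went from 26.5 and 27.2 to 221 and 363 and then to 2.88 and 10.3. These 4 genes peaked at the 2-cell stage among the stages compared. The others were abundant from the oocyte on. Zbed3, a zinc finger protein found in the egg's subcortical complex, was 13985 and 15002 FPKM in the zygote, 219 and 178 at the 2-cell and 1.75 and 2.45 at the 8-cell stage. Omt2b, an oocyte maturation gene, was 4313 and 3933, then 1760.0 and 1539.6, then 17.3 and 27.1, and its neighbour in name Omt2a was 1207 and 1070.1 at the 2-cell and 21.7 and 24.5 at the 8-cell stage. Both were lower again in the -/- libraries, at 3.86 and 0.625 and at 1.14 and 0.324. Brdt, a bromodomain protein known from the testis, was 135 and 142 against 1.97 and 2.01. Oog3, of the oogenesin family, was 193 and 186 against 3.37 and 1.76, and Fbxw24, an F-box gene, 62.1 and 57.9 against 0 and 0.322. Accsl (62.5 and 57.9 against 0 and 0.546) and Trim61 (54.6 and 54.5 against 0.425 and 0) closed the list. That the stages do not overlap in these genes is part of the rule that called them.

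Promoters of genes from each direction that stood near 0 at one of the stages are given here, since these genes had some of the widest differences. Each line is the 120 bases before the annotated start, 5′ to 3′ on the gene's strand, from RefSeq on GRCm38.p6 with the first start listed for the gene; the expression files name another build and no coordinate was taken from them. Capitals mark the TATA box letters TATAAA and the GC box letters GGGCGG, each searched on both strands, and these motifs overlapped nowhere here. The first group was lower at the 8-cell stage.
Obox3 (chr7:15639778-15639897, minus strand): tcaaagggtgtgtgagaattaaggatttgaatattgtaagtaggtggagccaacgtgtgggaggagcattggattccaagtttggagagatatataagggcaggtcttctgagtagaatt
Zscan4d (chr7:11166149-11166268, minus strand): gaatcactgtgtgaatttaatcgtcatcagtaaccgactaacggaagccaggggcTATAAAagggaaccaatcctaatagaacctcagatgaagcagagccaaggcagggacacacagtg
Oog3 (chr4:144162652-144162771, minus strand): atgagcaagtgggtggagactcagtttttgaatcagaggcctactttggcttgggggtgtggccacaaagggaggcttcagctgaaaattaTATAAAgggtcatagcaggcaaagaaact
The second group was higher at the 8-cell stage.
Sdc4 (chr2:164443189-164443308, minus strand): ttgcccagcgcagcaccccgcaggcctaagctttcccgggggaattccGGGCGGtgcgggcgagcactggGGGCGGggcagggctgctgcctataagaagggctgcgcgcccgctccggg
Aqp3 (chr4:41098184-41098303, minus strand): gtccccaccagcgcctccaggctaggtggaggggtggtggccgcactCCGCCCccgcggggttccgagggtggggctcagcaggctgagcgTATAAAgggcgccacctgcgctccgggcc
Nppb (chr4:147985780-147985899, plus strand): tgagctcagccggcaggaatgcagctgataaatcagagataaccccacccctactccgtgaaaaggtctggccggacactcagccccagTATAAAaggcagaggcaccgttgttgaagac
TATAAA began 29 bases before the start in Oog3 and Aqp3, 31 in Nppb and 65 in Zscan4d. GGGCGG began 72 and 50 bases before the start in Sdc4, and its reverse complement CCGCCC 73 in Aqp3. In Obox3 neither motif lay in this window. Among the 8152 promoters matched to counted genes, 2.97% held TATAAA and 50.2% GGGCGG in the same 120 bases, against 6.76% and 26.9% of all 27025 promoters in the table. Matched were 78.0% of the higher and 78.7% of the lower genes, under the 80% set for such checks, so a comparison of motif shares between them is void.

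Genes of the 2-cell burst were lower more often than higher, though most did not pass the rule. Of 56 listed, 43 were in the tables and 36 counted; 13 were lower (36.1%), 1 was higher, 22 passed neither way and the median difference was -1.22, against 7.95% lower and a median of 0.03 over all genes counted. The median was -0.73, with 10 lower, without 8-cell replicate 1 and -1.78, with 15 lower, without 8-cell replicate 2. The Zscan4 genes, zinc finger factors with a role at telomeres, were low together at the 8-cell stage: Zscan4d was 16.6 and 13.2 FPKM at the 2-cell stage and 0.221 and 0.116 at the 8-cell stage, and Zscan4f 18.9 and 14.3 against 0.243 and 0.161. These paralogs are near-identical, so fragments may have been divided among them. Usp17lb, a ubiquitin protease of a family in multiple copies, was 176 and 123 against 8.91 and 6.36. Tdpoz1 (31.9 and 25.2 against 1.92 and 1.3) and Spz1 (18.4 and 10.2 against 1.02 and 0.494) were likewise low in both 8-cell libraries. Snai1, a repressor known from epithelial to mesenchymal transition, was 92.2 and 75.2 against 7.37 and 4.59. Klf17, a Kruppel-like factor, was 312 and 318 against 27.9 and 31.4, still well above 0. The 1 higher member was Aqp3, whose level of 0 at the 2-cell stage goes against its place in this list. Pabpc1l, Patl2 and Arg2, also members, stood lower at the 2-cell stage than in the zygote, while Obox3 and Obox6 stood higher. The list thus holds more than burst genes. Some members, named after their values were seen, split the 8-cell replicates. Zfp352, a zinc finger gene, stood at 1.38 and 43.3 FPKM there after 65.4 and 50.8 at the 2-cell stage, Tdpoz4 at 7.22 and 48.9 after 29.2 and 26.5, and B020004J07Rik at 28.1 and 104 after 63.1 and 53.6. Zfp352 missed the rule without 8-cell replicate 1, at -0.40. In all of them replicate 2 was the higher, and for Tdpoz4 and B020004J07Rik it lay above both 2-cell libraries.

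Oocyte and maternal-effect genes made the largest group of lower genes. Of 71 counted among 77 listed, 50 were lower (70.4%) and 1 was higher (1.41%), beside 7.95% and 9.74% of all genes. The median difference was -3.16. In 40 of the 71 both 8-cell libraries were under 1 FPKM. Their summed level took 15.9% and 17.0% of all FPKM in the zygote libraries, 2.57% and 2.35% at the 2-cell stage and 0.839% and 0.753% at the 8-cell stage. Among secreted factors, Gdf9 was 30.7 and 30.5 FPKM at the 2-cell stage and listed at 0 in both 8-cell libraries, and Bmp15 was 22.9 and 16.1 against 0.207 and 0.676. Of the zona pellucida, the egg's coat, Zp1 was 8.84 and 8.25 against 0.138 and 0 and Zp2 6.92 and 7.47 against 0 and 0.138, while Zp3 kept 20.9 and 20.9 FPKM after 98.7 and 108. Of the subcortical maternal complex, which early cleavage needs, Nlrp5 was 12.9 and 12.8 against 0 and 1.17, Tle6 9.46 and 16.3 against 0.85 and 0.305 and Ooep 15.1 and 11.5 against 1.31 and 4.26. Ooep missed the rule without 8-cell replicate 1 (-1.44) or 2-cell replicate 1 (-1.85). Khdc3, a further subunit of that complex, went the other way, from 9.94 and 18.2 to 647 and 464. It had been 975 and 894 in the oocyte and 42.7 and 29.99 in the zygote, so its 8-cell level lay above every zygote and 2-cell library. Chromatin factors of the egg were low: Npm2, a nucleoplasmin, was 94.3 and 95.4 against 2.39 and 1.04, and Zfp57, which guards imprints, 138 and 119 against 9.28 and 7.99. Tcl1, a kinase cofactor, was 187 and 137 against 3.78 and 6.84, and Bcl2l10, a relative of Bcl2, 58 and 42.2 against 0.231 and 0.673. H1foo, the oocyte linker histone, was 36 and 32.5 against 0.13 and 8.33; its difference of -3.44 has an SE of 1.52 and was -1.91, short of the rule, without 8-cell replicate 1. The abundant Dppa3, which protects maternal DNA methylation, was 5408 and 5659 against 2339.8 and 2203 and did not pass the rule.

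The storage and decay machinery had 6 of 50 counted genes lower (12%) and 3 higher (6%), with a median of -0.03. Over all genes the shares were 7.95% lower and 9.74% higher. Btg4, the maternal adaptor that brings the deadenylase to its targets, was 3175 and 3544 FPKM in the zygote, 83.6 and 66.2 at the 2-cell and 0.855 and 1.12 at the 8-cell stage. Cnot6l, a catalytic subunit of that deadenylase, was 18.9 and 10.2 against 0.939 and 0.233. Dazl, a germ cell RNA-binding protein, was 4.81 and 5.32 against 0.384 and 3.77e-05. The higher members bind RNA as well: Cpeb2 was 1.89 and 1.73 against 25.8 and 24.2, Igf2bp1 1.39 and 2.08 against 31 and 18.3 and Lin28a, which blocks let-7 processing, 2.36 and 0.939 against 11.5 and 12.6. Lin28a missed the rule without 2-cell replicate 2, at 1.96.

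**Figure D2:**
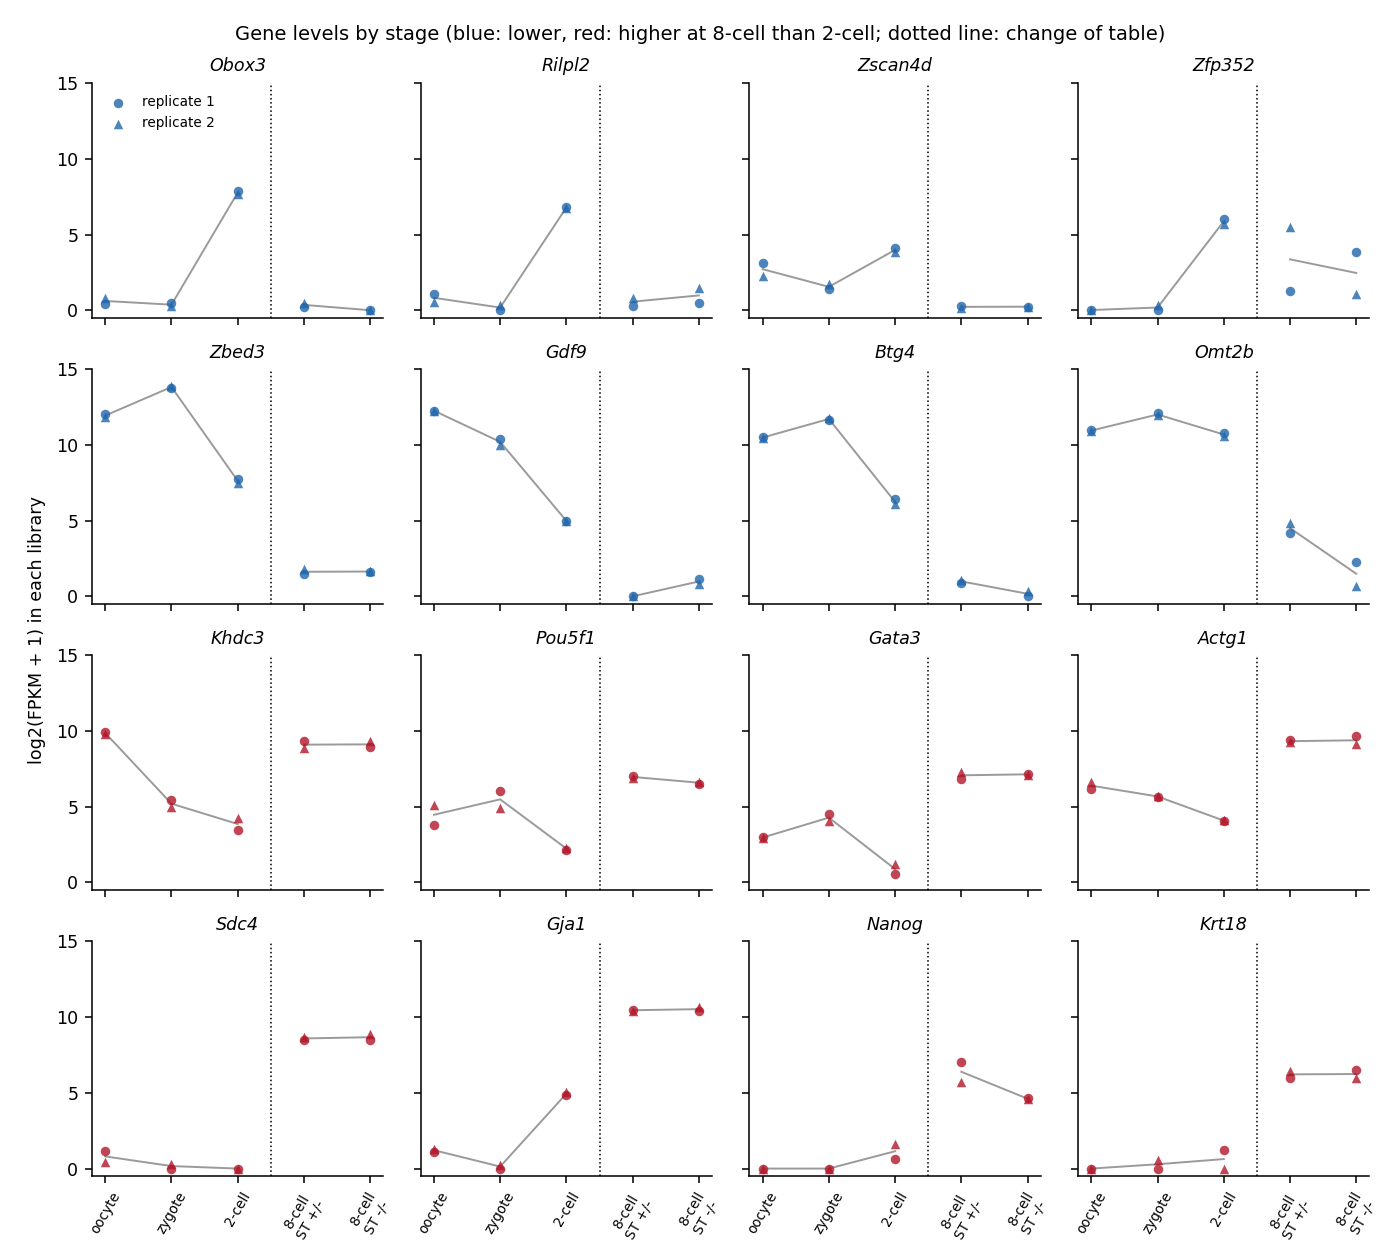
log2(FPKM + 1) of 16 genes in each library (circles replicate 1, triangles replicate 2) from full-grown oocyte to the spindle-transfer 8-cell stage; grey lines join means, and the dotted line marks the change of table. Obox3 and Rilpl2 stand high in the 2-cell libraries, Zbed3 and Gdf9 decline from the oocyte or zygote on, Khdc3, Pou5f1, Gata3 and Actg1 are lowest at the 2-cell stage, and the Zfp352 replicates at the 8-cell stage lie apart (1.38 and 43.3 FPKM).

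Regulators of pluripotency were higher more often than lower, 13 and 1 of 35 counted, with a median difference of 1.15, beside 9.74% and 7.95% of all genes. Nanog, a homeobox factor of the inner cell mass, was 0.578 and 2.1 FPKM at the 2-cell stage and 132 and 52.2 at the 8-cell stage, and 24.4 and 22.6 in the -/- libraries. Pou5f1, the factor OCT4, was 3.5 and 3.91 against 132 and 117, after 66.2 and 29 in the zygote. Tfcp2l1 was 0.854 and 0.287 against 42.2 and 25.2, Tbx3 2.7 and 2.8 against 76.9 and 47.6 and Klf5 15.4 and 14.3 against 139.9 and 135. Tet2, which oxidizes methylated cytosine, was 0.308 and 0.237 against 21.2 and 22.5, a ratio of means of 79.96. Jarid2, a Polycomb cofactor, was 6.63 and 5.85 against 65.1 and 54.7, and Zfp42, the marker REX1, 11.9 and 9.18 against 66.5 and 49.6. Sox15, of the SOX family, was already 93.7 and 112 and reached 492 and 366; it missed the rule without 2-cell replicate 1 (1.91) or 8-cell replicate 1 (1.83). Spry2 and Spry4, feedback inhibitors of receptor tyrosine kinases, went opposite ways: Spry2 from 34.9 and 50.5 to 172 and 279, Spry4 from 28.9 and 26.2 to 1.49 and 1.57. Other known regulators did not pass the rule. Dppa4 was 556 and 576 against 239.9 and 259, Nr5a2, a nuclear receptor of early transcription, 33.9 and 36.8 against 23.6 and 13.2, Klf4 5.84 and 4.54 against 5.59 and 8.36, and Sox2 was listed at 0 in the 4 libraries.

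Of the trophectoderm and primitive endoderm genes 24 of 46 listed were counted, with a median of 2.56. Of these, 13 were higher (54.2%) and 1 was lower (4.17%), beside 9.74% and 7.95% of all genes. With no filter on low values 40 members had a median of 0.51. In 6 of the 24 both 2-cell libraries were under 1 FPKM. Gata3, a trophectoderm factor, was 0.459 and 1.34 FPKM against 114 and 158, a difference of 6.19 (SE 0.41, 2 libraries a stage); it had been 21.7 and 15.6 in the zygote and fell from there by 3.40 on the log2 scale (limma adjusted p = 2e-06). Cdx2, the trophectoderm homeobox factor, was 0.142 and 0 against 6.9 and 7.54, and its maternal RNA was at or near 0 in oocyte and zygote. The keratins of simple epithelia were higher: Krt8 0.431 and 0.222 against 24.9 and 31 and Krt18 1.39 and 0 against 61.8 and 87.8. Elf3, an epithelial ETS factor, was 2.07 and 1.5 against 81.9 and 41.2, and Hand1 2.12 and 3.49 against 37.5 and 21.3. Id3, an inhibitor of helix-loop-helix factors, was 11.8 and 2.52 against 259 and 73.6, with wide replicates at both stages. On the side of the endoderm, Gata6 was 1.85 and 0.871 against 25.5 and 23.2, and the endocytic adaptor Dab2 1.08 and 0.439 against 84.4 and 93.3 after 23.1 and 37.4 in the zygote. Its receptor partner Lrp2 was 0 and 0.171 against 6.03 and 15.5, and the fatty acid carrier Fabp3 5.69 and 1.08 against 66.2 and 116. Gata4 was 19.8 and 21.7 against 8.47 and 7.83 and Tead4, the Hippo pathway's DNA-binding partner, 20.8 and 14.5 against 67.3 and 53.1; neither passed. Eomes, Sox17 and Pdgfra had too little RNA to be counted. The lower member, Bex1, rests on the 8-cell replicates of 32 and 0 after 38.3 and 51.9 at the 2-cell stage, and its difference was -0.47 without 8-cell replicate 2.

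Genes of adhesion, polarity, junctions and the Hippo pathway had 17 of 70 counted members higher (24.3%) and 1 lower (1.43%), with 52 neither. Over all genes the shares were 9.74% and 7.95%. The median of the list was 0.86, and 0.63 for 81 members with no filter on low values. In 13 of the 70 both 2-cell libraries were under 1 FPKM. The summed level of the list took 0.52% and 0.48% of all FPKM at the 2-cell stage and 1.98% and 1.81% at the 8-cell stage. Much of that is actin: Actb was 106 and 103 FPKM against 3136 and 2802, a ratio of means of 28.4, and Actg1 15.6 and 16.3 against 673 and 612. Of gap junctions, Gja1 (connexin 43) was 28 and 31.9 against 1446 and 1359, and it had risen from 0 and 0.2 in the zygote by 4.82 (SE 0.23, limma adjusted p = 1.4e-08). Of adherens junctions, Cdh1 (E-cadherin) was 0.591 and 1.12 against 28 and 18.8, after 19.9 and 11.2 in the zygote. Of tight junctions, Cldn7 was 7.03 and 6.32 against 121 and 104 and cingulin (Cgn) 5.95 and 3.77 against 22.7 and 29.2, while Cldn6 at 34.1 and 34.5 against 18.9 and 25 and Tjp1 (ZO-1) at 1.04 and 1.42 against 5.58 and 3.48 did not pass. Other higher members were Actn4, an actin crosslinker, at 11.4 and 9.89 against 107 and 78.3, Myh10, a nonmuscle myosin, at 0.876 and 2.03 against 9.51 and 10.8 and the integrin Itgb1 at 1.87 and 2.37 against 16 and 26.6. The polarity genes Pard6b (1.64 and 3.33 against 4.6 and 7.17), Prkcz (3.26 and 2.79 against 5.53 and 7.5) and Prkci (2.6 and 2.78 against 8.7 and 2.36) did not pass. In the Hippo pathway Amotl2 was 0 and 0.0594 against 5.62 and 5.68 and the kinase Lats2 1.61 and 0.675 against 8.35 and 7.1, both higher, while its target Yap1, at 13.9 and 12.6 against 3.56 and 2.98, did not pass. Without 2-cell replicate 2 the difference of Cgn was 1.94 and that of Lats2 1.74, without 8-cell replicate 1 that of Lats2 was 1.96, and without 2-cell replicate 1 that of Myh10 was 1.88, all short of the rule. The lower member was the microvillus protein Vil1, 7.4 and 6.17 against 0.0407 and 0.

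Of pumps, channels and transporters 4 of 29 counted members were higher (13.8%) and 3 lower (10.3%), near the shares of 9.74% and 7.95% over all genes. Beside Aqp3, the glucose transporters Slc2a3 (1.33 and 0.63 against 35.1 and 17.9) and Slc2a8 (2.79 and 2.64 against 30.3 and 29) and the creatine transporter Slc6a8 (1.1 and 2.78 against 29.5 and 25.1) were higher. Aqp11, a channel of the endoplasmic reticulum, was lower at 81.3 and 78.2 against 1.8 and 9.62, as was the glutamine transporter Slc1a5 at 11.7 and 12.2 against 1.48 and 0.919. Atp1b1, the beta subunit of the sodium pump that later helps fill the blastocyst cavity, did not pass at 2.65 and 3.47 against 13.7 and 4.67. Of growth factors and receptors 5 of 34 counted were higher (14.7%) and 4 lower (11.8%), also near those shares. Fgfr2, a receptor of fibroblast growth factors, was 0.119 and 0.509 FPKM against 14.9 and 8.1, the ligand Pdgfa 1.36 and 0.291 against 19 and 18.5, and the Nodal coreceptor Tdgf1 0.962 and 0.412 against 14.3 and 6.97. Dusp4 (0.249 and 0.319 against 7.25 and 8.38) and Dusp6 (0.107 and 0.548 against 5.48 and 3.35), phosphatases that act on ERK, were higher from levels under 1 FPKM; Dusp6 missed the rule without 2-cell replicate 1 (1.78) or 8-cell replicate 1 (1.73). The receptors Fzd7 (7.2 and 9.82 against 0.18 and 0.42) and Kit (6.28 and 5.68 against 0.215 and 0) were lower.

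**Figure D3:**
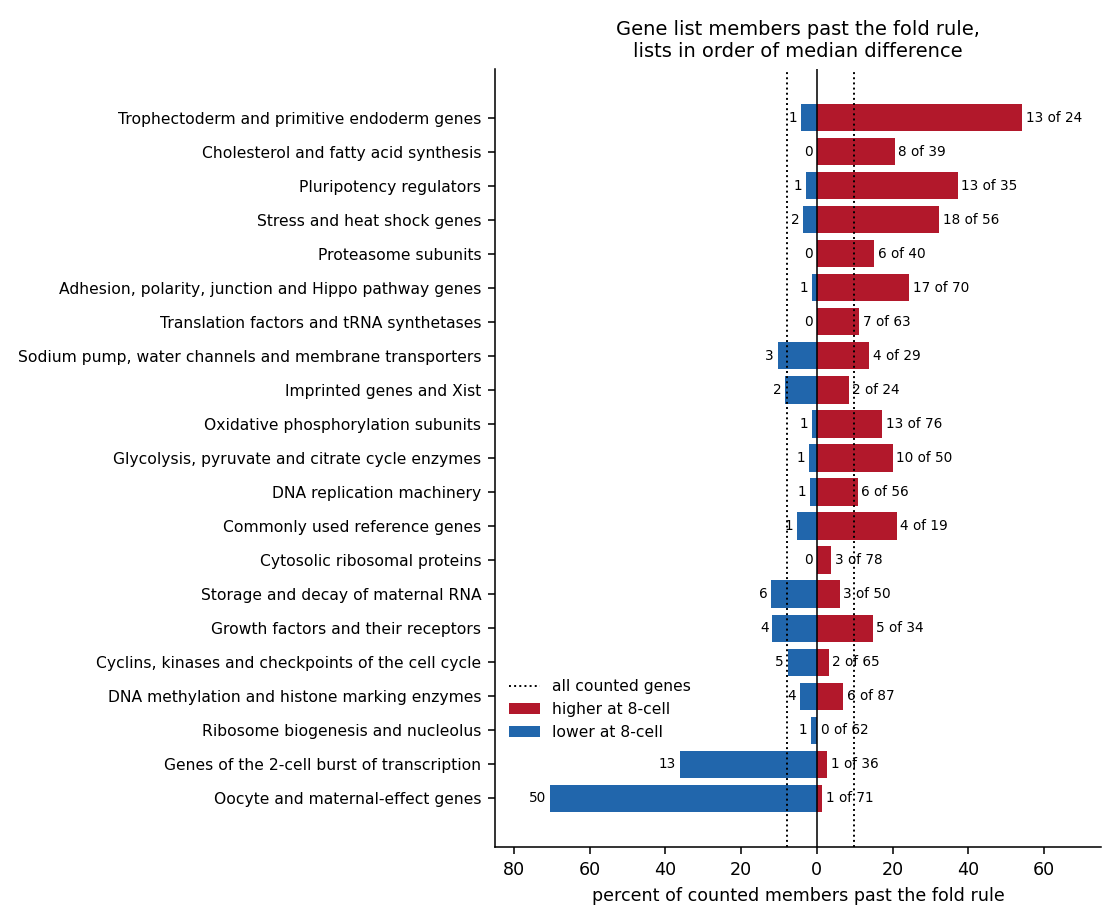
Percent of the counted members of each list that were higher (red, right) or lower (blue, left) at the 8-cell stage, with the numbers beside the bars; dotted lines mark 9.74% and 7.95%, the shares over all counted genes. Lists stand in order of their median difference, from 2.56 for the trophectoderm and primitive endoderm genes at the top to -3.16 for the oocyte and maternal-effect genes at the bottom; lists under 19 counted genes are left out.

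Enzymes and readers of DNA methylation and histone marks were near level as a list, with a median of -0.25. Of 87 counted, 6 were higher (6.9%) and 4 lower (4.6%), beside 9.74% and 7.95% of all genes. Setd2 itself was 53.2 and 43 FPKM at the 2-cell stage and 18.2 and 17.1 at the 8-cell stage, with 15.4 and 18.1 in the libraries labelled -/-, so the labelled genotypes overlap in its RNA. Its difference was -1.39 (SE 0.16, 2 libraries a stage), not past the rule, after a rise from 12.1 and 8.85 in the zygote (limma adjusted p = 1.5e-05). Whether fragments from an altered allele are counted in its FPKM is not given. Pcgf1, of a Polycomb complex, was 703 and 742 against 25.9 and 33.3, the largest difference of the list. Ep300, an acetyltransferase of enhancers, was 14.4 and 8.74 against 1.75 and 1.59, and missed the rule without 2-cell replicate 1, at -1.87. Higher were Kdm6b, which removes methyl groups from lysine 27 of histone H3, at 4.38 and 3.68 against 34.4 and 38.3, the deacetylase Hdac2 at 13.7 and 7.75 against 73.6 and 95.7, and Ash2l, a subunit of methyltransferase complexes for lysine 4, at 18.7 and 23 against 92.2 and 124. Kdm6b was higher again in the -/- libraries, at 104 and 97.4.

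In the cell cycle list 2 of 65 counted genes were higher (3.08%) and 5 lower (7.69%). Over all genes the shares were 9.74% and 7.95%, so the lower share of the list was near that of all genes. Cyclin D3 (Ccnd3) was 7.61 and 10.9 against 85.3 and 71.6, and the cyclin-dependent kinase inhibitor Cdkn1a 21.2 and 15.3 against 98.1 and 199. Lower were Wee2, the oocyte kinase that restrains CDK1, at 12.9 and 14.1 against 0.398 and 0.103, the phosphatase Cdc25c at 56.4 and 79.98 against 9.24 and 11.3, and Mdm4, an inhibitor of p53, at 228 and 213 against 8 and 9.49. Geminin (Gmnn), which blocks relicensing of origins, was 924 and 1035 at the 2-cell stage and 209 and 222 at the 8-cell stage, close to its zygote level of 214 and 227. Of the replication machinery 6 of 56 counted were higher (10.7%, near the 9.74% over all genes) and 1, Gmnn, was lower. The clamp loader Rfc4 was 20.2 and 16.4 against 154 and 145, thymidylate synthase (Tyms) 14 and 13.5 against 80.2 and 84.6, the polymerase subunits Pold2 8.45 and 6.56 against 48.5 and 44.7 and Pold1 0.515 and 1.4 against 7.8 and 8.4, and the helicase subunit Mcm5 8.93 and 10.04 against 46.5 and 44.7. Pold1 missed the rule without 2-cell replicate 1, at 1.92.

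Ribosomal protein genes were nearly level between these stages. Of 78 counted, 3 were higher (3.85%) and none lower, beside 9.74% and 7.95% of all genes, with a median of 0.23. With the -/- libraries as the 8-cell stage 10 were higher and the median was 0.72. They took 7.51% and 7.67% of all FPKM at the 2-cell stage and 6.97% and 7.71% at the 8-cell stage, after 0.19% and 0.17% in the zygote. The exceptions were Rpl3 (17.5 and 23.4 against 109 and 98.4), Rpl5 (40.1 and 47.7 against 197 and 187) and Rpl12 (0 and 0.544 against 6.53 and 6.5), families with many pseudogenes among which fragments may have been shared; Rpl5 missed the rule without 2-cell replicate 1, at 1.98. The 62 counted genes of ribosome biogenesis had none higher and 1 lower (1.61%, beside 7.95% of all genes), with a median of -0.40. The lower gene was Polr1e of RNA polymerase I, at 106 and 109 against 19.1 and 22.6. Translation factors and tRNA synthetases had 7 of 63 higher (11.1%, near the 9.74% over all genes), none lower and a median of 0.75. The subunits of elongation factor 1 stood out by size: Eef1a1 was 235 and 237 FPKM against 1838 and 2618, Eef1b2 26.7 and 30.4 against 242 and 363 and Eef1g 8.52 and 5.21 against 90.1 and 103. The synthetases Mars (6.87 and 7.9 against 52.6 and 45.7) and Lars (2.92 and 1.45 against 24.7 and 14.1) were higher. Of proteasome subunits 6 of 40 were higher (15%, beside 9.74% of all genes) and none lower (7.95% of all genes), with a median of 0.90. Their share of all FPKM went from 1.54% and 1.63% to 2.66% in both 8-cell libraries. The ATPase subunit Psmc3 was 31.1 and 22.3 against 201 and 226 and Psmc6 42 and 53.2 against 353 and 329. Psmb9, a subunit of the immunoproteasome, was listed at 0 and then at 3.54 and 7.55.

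**Figure D4:**
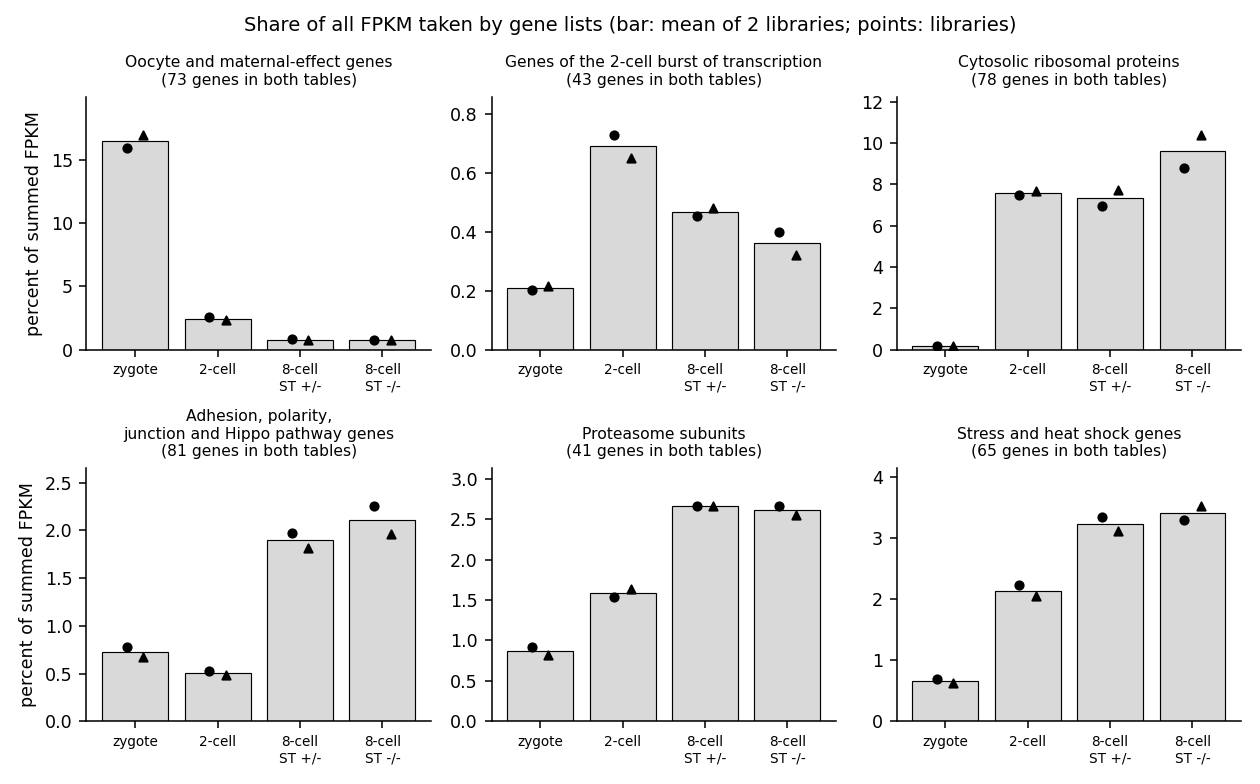
Percent of the summed FPKM of all genes that 6 lists took in control zygotes, control 2-cell embryos and spindle-transfer 8-cell embryos labelled +/- and -/- (bars, means of 2 libraries; points, libraries; each panel has its own y axis from 0). The maternal genes go from 15.9% and 17.0% to under 1%, ribosomal proteins are far higher at the 2-cell stage than in the zygote, and the adhesion, proteasome and stress lists are higher at the 8-cell than at the 2-cell stage, across the change of table.

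Genes of energy metabolism were higher more often than lower, beside 9.74% and 7.95% of all genes. Of oxidative phosphorylation subunits 13 of 76 counted were higher (17.1%) and 1 was lower (1.32%), with a median of 0.63. The summed level of that list was about even, at 3.48% and 3.76% of all FPKM at the 2-cell and 3.43% and 3.93% at the 8-cell stage. Sdha, the catalytic subunit of succinate dehydrogenase, was 2.6 and 2.76 FPKM against 44.6 and 38.6, after 49.1 and 46.8 in the zygote. Uqcrb, of complex III, was 32.2 and 45.3 against 291 and 273, and Cox6c, of cytochrome c oxidase, 142 and 219 against 758 and 917, though Cox6c missed the rule without 2-cell replicate 1, at 1.92. In complex I Ndufa3 was 33.8 and 38.5 against 235 and 288 while Ndufa2 was lower, 561 and 591 against 83.7 and 102. Of glycolysis, pyruvate and citrate cycle enzymes 10 of 50 counted were higher (20%) and 1 was lower (4 without 8-cell replicate 1), with a median of 0.58. The cycle's enzymes Suclg2 (1.07 and 1.14 against 23.6 and 38.9) and Sucla2 (13.2 and 16.8 against 163 and 187) were higher, as were the cytosolic Idh1 (5.37 and 1.95 against 142 and 124) and, in glycolysis, Aldoa (37.5 and 37.5 against 235 and 332). Hexokinase 2 (Hk2) was 0.104 and 0.0446 against 6.23 and 3.46, with 21.9 and 18.9 in the -/- libraries. The lower member was Ldhb, the lactate dehydrogenase of the oocyte, 1995 and 2507 in the zygote, 83.4 and 89.5 at the 2-cell and 2.07 and 2.79 at the 8-cell stage. Of cholesterol and fatty acid synthesis 8 of 39 were higher (20.5%), none lower, with a median of 1.20. Sc4mol, the sterol C4 demethylase, was 0.853 and 5.84 against 138 and 132, the desaturase Scd2 0.58 and 0.226 against 15.7 and 6.6, and Dhcr7, of the last step to cholesterol, 2.12 and 1.18 against 13.2 and 12.6. Fabp5, a fatty acid carrier, was 3.5 and 2.21 against 14 and 59.1 and missed the rule without 8-cell replicate 2, at 1.98.

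Stress and heat shock genes had 18 of 56 counted members higher (32.1%) and 2 lower (3.57%), beside 9.74% and 7.95% of all genes. The median was 0.92, and in 9 of the 56 both 2-cell libraries were under 1 FPKM. The constitutive chaperone Hspa8 was 285 and 245 FPKM against 3433 and 3186, and the Hsp90 genes Hsp90aa1 135 and 127 against 581 and 768 and Hsp90ab1 323 and 314 against 1862 and 1742. Dnaja1, a cochaperone, was 11.4 and 14.7 against 167 and 159 and the heat shock factor Hsf2 3.88 and 3.81 against 60.8 and 50.7. The inducible Hspa1b was not counted, at 0.689 and 0.817 and 0.0682 and 0.371. Other higher members were Ccng1, a cyclin G, at 2.1 and 2.23 against 76.2 and 102, Phlda3, a repressor of Akt, at 0 and 0.749 against 21.7 and 55.7 and Bax, an effector of apoptosis, at 25.3 and 23.4 against 101 and 103; Bax missed the rule without 2-cell replicate 2, at 1.97. The gene of p53 itself, Trp53, was 29 and 29.9 against 55 and 74.5, and Mdm2, its ubiquitin ligase, 39.9 and 48.1 against 37 and 81; neither passed. Of the amino acid and unfolded protein responses Asns was 0.641 and 0.686 against 44.4 and 12.2 and Xbp1 1.78 and 2.58 against 22.2 and 12.7, while Atf4 (80.9 and 73.4 against 88 and 71.7), Ddit3 (25.6 and 18.4 against 8.69 and 4.96) and Hspa5 (272 and 233 against 376 and 219) did not pass. Fos, an immediate early gene, was listed at 0 and then at 31.2 and 2.99, so its 8-cell replicates were far apart, and its difference was 1.998 without replicate 1 of that stage. Gadd45a (21.1 and 8.57 against 0.232 and 4.46) and Gadd45b (28.3 and 14.9 against 0.892 and 11.8) were lower. Both calls ended without 8-cell replicate 1, where the differences were -1.41 and -0.75, and without 2-cell replicate 1, where they were -1.88 and -1.69. The 8-cell embryos had been through spindle transfer, sperm injection and culture and the 2-cell embryos had not, and the part of these in the stress genes was not tested.

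Of imprinted genes 2 of 24 counted were higher and 2 lower (8.33% each, near the shares over all genes), while 9 were higher with the -/- libraries as the 8-cell stage. Snrpn, a splicing protein gene expressed from the paternal allele, was 37.4 and 48.8 against 181 and 234, and Sgce 0 and 0.793 against 4.68 and 8.51. Usp29 was lower at 14.6 and 18.1 against 0.899 and 0.574, with Phlda2 above. Some genes often used as a reference differed: of 19 counted, Actb, Eef1a1, Ywhaz and Sdha were higher (21.1%) and Tbp lower (5.26%). Over all genes the shares were 9.74% and 7.95%. The other 14 reference genes passed neither way. The call of Tbp ended without 2-cell replicate 2 (-1.99) or 8-cell replicate 1 (-1.87). Ywhaz, a 14-3-3 protein, was 29.6 and 26.2 against 256 and 220.4, and Tbp, the TATA-binding protein, 159 and 165 against 35.7 and 43.4, while Hprt was 828 and 999.6 against 1079 and 842 and Ppia 762 and 756 against 1696 and 1584. Among markers of other cells, Amhr2 was 37.1 and 31.5 against 7.34 and 4.99 and had been listed at 0 in the zygote, Ldhc was 18.7 and 19.2 against 0 in both, and Tnp1 2.47 and 5.29 against 0 in both, short of the rule without 2-cell replicate 2, at -1.80. Pecam1 (8.17 and 8.47 against 13.4 and 5.74) and Cd68 (0.687 and 4.11 against 5.74 and 3.17) did not pass.

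The level that a gene had before the 2-cell stage is given here for the called sets. These sets were chosen partly by their 2-cell level, among the same 12 libraries that hold the zygotes and oocytes. A split in earlier level can therefore follow in part from the rule, and it is only described. Of the lower genes 46.0% stood at 20 FPKM or more in the zygote, of the higher genes 17.2%, and of all genes counted 29.1%. Under 1 FPKM in the zygote were 40.4% of the higher, 25.9% of the lower and 25.6% of all genes. In full-grown oocytes the shares at 20 FPKM or more were 43.4% of the lower, 24.9% of the higher and 32.0% of all. The zygote to 2-cell step, tested with limma within the table of 12 libraries, called 4080 of 12199 genes higher (33.4%) and 5205 lower (42.7%) at an adjusted p of 0.05. It shares the 2-cell libraries with the comparison above, so the values are set side by side without a count of genes common to both. Several higher genes had been plentiful before and were at their lowest in the 2-cell libraries. Dab2 was 21.5 and 20.1 FPKM in the oocyte, 23.1 and 37.4 in the zygote, 1.08 and 0.439 at the 2-cell and 84.4 and 93.3 at the 8-cell stage, and it fell from zygote to 2-cell by 4.14 on the log2 scale (SE 0.32, limma adjusted p = 4.3e-07). Pou5f1 fell by 3.25 (SE 0.45, limma adjusted p = 4.5e-05) before it stood higher at the 8-cell stage. Amd2 was near 0 in the oocyte (0.0165 and 0.00902), 56.1 and 49.3 in the zygote, 0.697 and 0.0668 at the 2-cell and 166 and 59.7 at the 8-cell stage, so that its level alternated from stage to stage. Suclg2 was 21.9 and 24.1 in the zygote, 1.07 and 1.14 and then 23.6 and 38.9, and Ywhaz 267 and 259, 29.6 and 26.2 and then 256 and 220.4. Other genes stood higher at each step, as Gja1 did: Cdkn1a was 1.84 and 1.36 in the zygote, 21.2 and 15.3 at the 2-cell and 98.1 and 199 at the 8-cell stage, and Rpl3 0.226 and 0.502, 17.5 and 23.4 and 109 and 98.4.

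**Figure D5:**
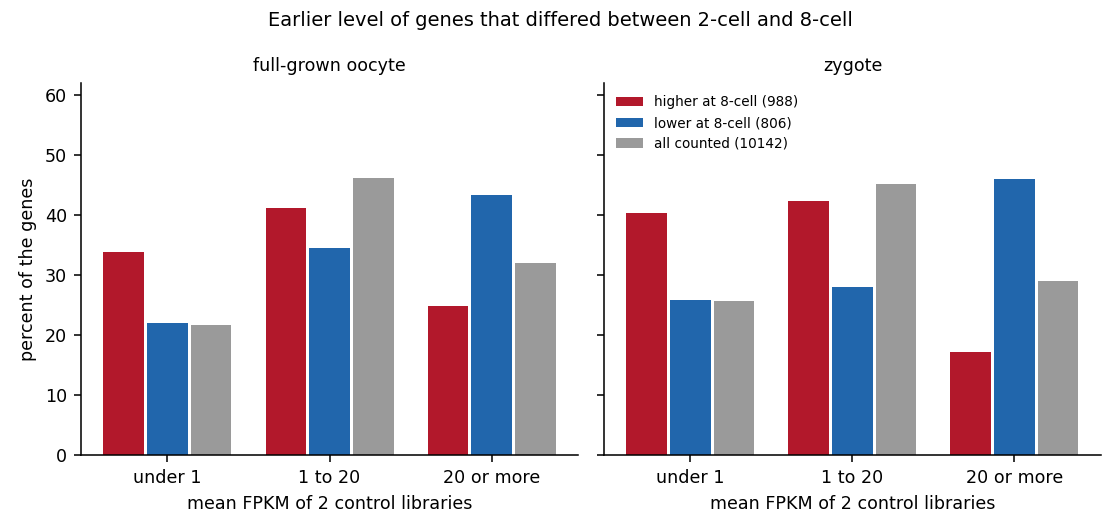
Percent of the genes higher at the 8-cell stage (988, red), lower (806, blue) and of all counted genes (10142, grey) by their mean FPKM in 2 control libraries of full-grown oocytes (left) and zygotes (right). In zygotes 46.0% of the lower genes and 17.2% of the higher genes stand at 20 FPKM or more. The sets were chosen partly by their 2-cell level, so such a split can follow in part from the rule.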

How the data were processed

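Gene expression in mouse oocytes and embryos was measured by RNA-seq. The authors deposited FPKM values in separately made tables, one of 12 and one of 4 libraries, and TopHat2 2.0.11, Cufflinks 2.0.2 and mm9 are named in the submitters' processing notes, without roles. Tables were joined by gene symbol. Values were taken as log2(FPKM + 1) with Python 3.11.15, and groups came from the sample titles. The stages were compared by the fold rule in the text, with no test. Zygotes and 2-cell embryos were tested within the table of 12 with limma 3.58.1 (R 4.3.3; a mean per group, all 12 libraries, moderated variance with trend, two-sided, Benjamini-Hochberg over 12199 genes, threshold 0.05). On simulated data for that step the test recovered 96.3% of 4-fold and 30% of 2-fold changes, and 7.33% of its calls were false. An exact test of 2 against 2 libraries cannot go below a p of 0.33. Across genes, the replicate 1 minus replicate 2 difference of zygotes correlated at 0.03 with that of 2-cell embryos. Replicate numbers were therefore not taken as pairs. Depth was estimated from 1-fragment steps in 2085 genes with a single transcript over 1500 nt, so values near 1 FPKM rest on few fragments.

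Members and the 25 lists were chosen with earlier results of these data known. Named genes were Setd2, the 12 largest differences each way among called genes whose higher stage averaged 20 FPKM or more, and from each list the 4 called members with the largest differences at 5 FPKM or more (or the 2 highest where none was called), leaving out symbols without an established name and olfactory or vomeronasal receptors in the first group; a few genes are not reported here. Other genes in the text are list members chosen after their values were seen. Promoters came from RefSeq tables of GRCm38.p6, matched by symbol or synonym for 8175 of 10142 genes. Alternatives are given in the closing section.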

Additional observations from a re-analysis of the deposited data

How the results depend on the processing

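The counts of 988 higher and 806 lower genes moved most with the scale and the fold asked for. With a pseudocount of 0.1 they were 1602 and 1492, with a pseudocount of 5 they were 388 and 285, and with a difference of at least 3 they were 324 and 257. Asking for every pair of libraries to be 2 apart gave 659 and 525. Under median-ratio rescaling (946 and 847), quantile normalization (929 and 866), equal sums of FPKM (992 and 802), no filter (990 and 806), a filter of 5 FPKM (847 and 683) and with the -/- libraries as the 8-cell stage (960 and 882) they stayed within 1.5 times. With all 4 spindle-transfer libraries, an alternative chosen after seeing the data, they were 926 and 789. Leaving out 1 library at a time gave 985 to 1059 higher and 794 to 855 lower genes. Of 91 genes that the naming rule gives and that passed the fold rule, 4 missed it without 1 library, and of all 227 called list members 43 did. Over all alternatives 107 counts of list members moved by over 1.5 times, or to or from 0, and 643 did not. With the -/- libraries as the 8-cell stage the median was -1.88 for the 2-cell burst and 0.55, with 4 lower, for adhesion, and the higher genes were 3 in replication and 5 in sterol and fatty acid synthesis. With no filter the medians were 0.16 for transporters, 0.73 for sterol and fatty acid synthesis and 0.19 for imprinted genes. The rule between the labelled genotypes at the 8-cell stage called 63 genes, and 72 to 138 with 1 library left out, most without replicate 1 of the +/- group (138) or of the -/- group (129); the cause was not tested. Pairing by replicate number leaves a difference of means as it is, so for the change between stages, compared with no test, there is no blocked value. For the zygote to 2-cell step, where limma called 4080 and 5205 genes, the replicate block gave 4111 and 5225 calls, leaving out 1 library 3811 to 3975 and 4590 to 5035, and median-ratio rescaling 4743 and 4602, which turns the balance of higher against lower calls. Depth limits genes near 1 FPKM, above all at the 2-cell stage with 3.35 and 3.84 M fragments.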
